A study of Homo sapiens with 9 samples.

Results

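The nuclear genes for the subunits of respiratory complexes II to V were taken from the deposited gene table by symbol. The rule takes SDHA to SDHD, every UQCR symbol, CYC1, the symbols from COX4 to COX8 followed by a letter, and every ATP5 symbol, without mitochondrial or antisense genes. It found 51 of the 20379 genes in the table: 4 for complex II, 10 for complex III, 17 for complex IV and 20 for complex V. COX4I2, COX6A2, COX7A1, COX8C and ATP5MGL were listed at 0 in all 9 libraries. UQCRHL, with 18.0 estimated counts in total, and COX6B2, with 27.9, did not pass the filter on low counts. The 44 members tested were 4 of complex II, 9 of complex III, 12 of complex IV and 19 of complex V.

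The samples were HCCLM3 cells, an established line of human liver cancer (hepatocellular carcinoma), transfected with siRNA against UXS1, siRNA against MRPL42 or a non-targeting control siRNA (siRNA-NC), with 3 poly(A) RNA libraries in each group. UXS1 encodes the enzyme that makes UDP-xylose for glycosaminoglycan chains, and MRPL42 encodes a subunit of the ribosome inside mitochondria. All groups share 1 cell line and the transfection, and siRNA acts on the mRNA for a limited time without removing the gene. The study asked which genes differ after each siRNA, and both targeting siRNAs are compared with the same control libraries. The letters a, b and c name the libraries of a group and pair nothing between groups.

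Respiratory complexes sit in the inner mitochondrial membrane. Complex II (succinate dehydrogenase) feeds electrons from the citric acid cycle to ubiquinone, complex III passes them to cytochrome c, complex IV (cytochrome c oxidase) passes them to oxygen, and complex V (ATP synthase) uses the resulting proton gradient to make ATP. Complex II is encoded entirely in the nucleus, while complexes III, IV and V each combine nuclear subunits with core subunits that are encoded in mitochondrial DNA and made on the mitochondrial ribosome. Many nuclear subunits of complexes III, IV and V are very small proteins, so their mRNAs are short, and transcript length is given beside the results for that reason.

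Totals of the 9 libraries ranged between 15265959 and 22400560 estimated counts, of which 0.582% to 0.633% in UXS1 siRNA and 0.527% to 0.699% in MRPL42 siRNA fell on the members, against 0.446% to 0.506% in control siRNA. UXS1 mRNA averaged 141 ± 3.43 CPM in UXS1 siRNA, against 158 ± 18.8 CPM in control siRNA, and MRPL42 mRNA averaged 93.1 ± 11.3 CPM in MRPL42 siRNA, against 122 ± 23.4 CPM in control siRNA (SD, n = 3 each). By library, UXS1 mRNA had 144.7, 137.8 and 140.8 CPM in UXS1 siRNA, against 144.2, 150.9 and 179.7 CPM in control siRNA. MRPL42 mRNA had 104, 93.0 and 81.8 CPM in MRPL42 siRNA, against 100, 118 and 147 CPM in control siRNA. Both targets thus overlapped control. Neither target passed the adjusted threshold in its own siRNA group (edgeR adjusted p = 0.348 and 0.185), so groups are named by their siRNA. Of 9 markers of hepatoma cells, 8 were tested, and APOA1 had 39 counts in total. Their levels differed widely in the control libraries. KRT8 stood between 4196 and 5362 CPM, APOB between 55.3 and 83.2 CPM and AFP between 1.64 and 2.01 CPM. Of 4 endothelial markers, PECAM1 and KDR were tested, with sums of 58.3 to 67.4 CPM in UXS1 siRNA and 59.6 to 71.8 CPM in MRPL42 siRNA, against 23.2 to 69.4 CPM in control siRNA, while CDH5 was at 0 and VWF had 45 counts in total. Of 5 leukocyte markers, LYZ was tested, with sums of 6.21 to 7.79 CPM for the list in UXS1 siRNA and 4.22 to 4.98 CPM in MRPL42 siRNA, against 1.22 to 4.90 CPM in control siRNA, and PTPRC had 42 counts in total. Control library c stood apart: edgeR's common coefficient of variation was 0.0753 without it, against 0.130 over all 9. Its 3 tested fibroblast markers (of 5) summed to 302 CPM, against at most 63.8 CPM in UXS1 siRNA and 61.4 in MRPL42 siRNA. Its LUM (lumican) was 277 CPM, nearly all of that sum, against 35.4 and 37.1 CPM in control libraries a and b. It also held 3.98 CPM of KDR, 3.61 CPM of ALB and 12.5 CPM of TF, and 111 CPM of HNF4A, while control libraries a and b held 33.7 and 31.5 CPM of KDR, 12.2 and 13.1 CPM of ALB, 42.2 and 37.8 CPM of TF and 57.6 and 57.0 CPM of HNF4A. The part of these RNAs in the results was not tested. MRPL42 siRNA library b also differed from the other libraries of its group in the members, as given beside the results. The labels do not say whether libraries of a group come from separate cultures, and the p-values rest on their spread, which may be technical only.

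No member passed the edgeR threshold of an adjusted p below 0.05 with either targeting siRNA with all 9 libraries. The share of all 12657 genes tested that passed was 0.0158% in UXS1 siRNA (2 genes) and 0.0% in MRPL42 siRNA. Most members nevertheless lay above control in most libraries. All 3 UXS1 siRNA libraries exceeded all 3 control libraries for 35 of the 44 members, where 15.3% of all genes tested did so, and all 3 MRPL42 siRNA libraries did so for 29, where 11.0% of all genes did. The median log2 fold change of the members was 0.42 in UXS1 siRNA and 0.46 in MRPL42 siRNA, with 42 members above 0 in each, and the medians of all genes were -0.0047 and -0.01. An unadjusted edgeR p below 0.05 was reached by 31 members in UXS1 siRNA and by 33 in MRPL42 siRNA, all of them higher than in control, and by 2249 and 2561 of all genes. Both comparisons use the same 3 control libraries.

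By complex, median log2 fold changes were 0.10 for complex II, 0.29 for complex III, 0.57 for complex IV and 0.42 for complex V in UXS1 siRNA, and 0.05, 0.36, 0.68 and 0.43 in the same order in MRPL42 siRNA. The groups did not overlap, with UXS1 siRNA higher, for 2 of 4 members of complex II, 7 of 9 of complex III, all 12 of complex IV and 14 of 19 of complex V. In MRPL42 siRNA the counts were 0 of 4, 6 of 9, 9 of 12 and 14 of 19. SDHA was the 1 member with all UXS1 siRNA libraries below all control libraries. The share of all genes below control in all libraries was not counted, so this does not set SDHA apart from other genes. In bulk RNA, a difference in how many cells carry an mRNA and a difference in its amount per cell cannot be told apart.

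**Figure D1:**
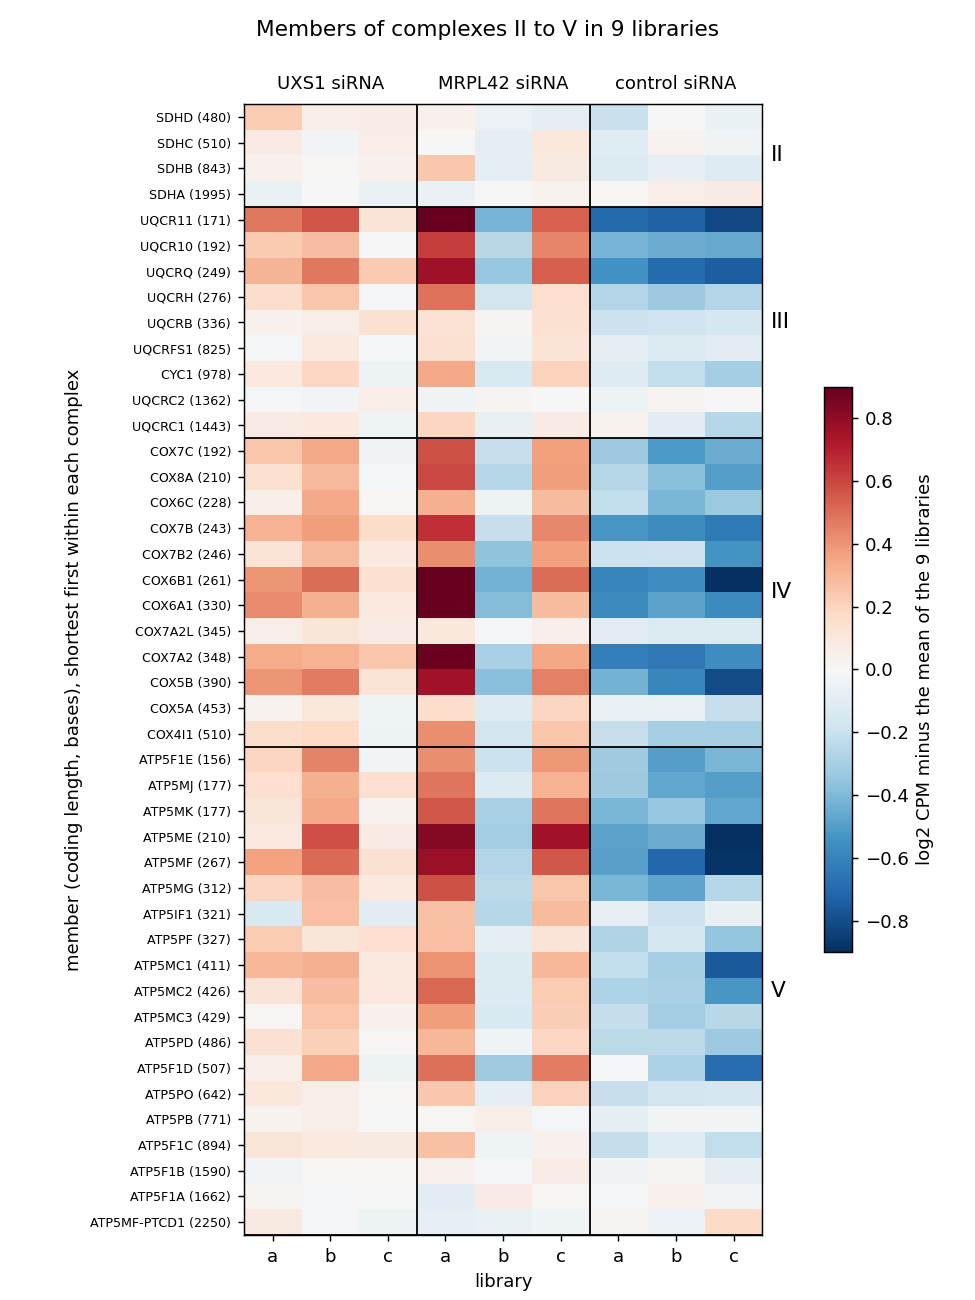
Log2 CPM of each tested member relative to its mean over the 9 libraries, with complexes II to V from top to bottom, coding length in bases in brackets and colours ending at 0.9 and -0.9. Most short members of complexes III, IV and V are red in UXS1 siRNA libraries a and b and in MRPL42 siRNA libraries a and c, and blue in MRPL42 siRNA library b and in the control libraries, while most long members and complex II stay pale.

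Complex II has 4 subunits, all nuclear. SDHA, the flavoprotein that oxidises succinate (chromosome 5, 218241 to 256700, plus strand, GRCh38), and its neighbour in the soluble part, the iron-sulfur protein SDHB (chromosome 1, 17018722 to 17054170, minus strand), were set beside the membrane anchors SDHC and SDHD. SDHA had 153, 159 and 153 CPM in the UXS1 siRNA libraries and 153, 159 and 163 CPM in the MRPL42 siRNA libraries, against 161, 166 and 168 CPM in the control libraries. The UXS1 siRNA libraries lay just below all control libraries, and MRPL42 siRNA library c lay within the control range. SDHB had 80.5, 78.9 and 80.5 CPM in the UXS1 siRNA libraries and 92.7, 74.1 and 82.9 CPM in the MRPL42 siRNA libraries, against 71.5, 74.5 and 72.3 CPM in the control libraries. All UXS1 siRNA libraries were above all control libraries by a small margin, and MRPL42 siRNA library b lay within the control range. SDHC had 92.4, 86.3 and 91.9 CPM in the UXS1 siRNA libraries and 87.6, 83.0 and 93.9 CPM in the MRPL42 siRNA libraries, against 81.5, 89.7 and 86.1 CPM in the control libraries. SDHD had 137, 122 and 122 CPM in the UXS1 siRNA libraries and 119.8, 113 and 110.1 CPM in the MRPL42 siRNA libraries, against 101, 117 and 112 CPM in the control libraries. For SDHC both targeting siRNAs overlapped control, and for SDHD UXS1 siRNA was above control and above MRPL42 siRNA in all libraries. The log2 fold changes were -0.09 (SE 0.06) in UXS1 siRNA and -0.06 (SE 0.06) in MRPL42 siRNA for SDHA, 0.14 (SE 0.08) in UXS1 siRNA and 0.19 (SE 0.08) in MRPL42 siRNA for SDHB, 0.07 (SE 0.07) in UXS1 siRNA and 0.04 (SE 0.07) in MRPL42 siRNA for SDHC and 0.20 (SE 0.08) in UXS1 siRNA and 0.05 (SE 0.08) in MRPL42 siRNA for SDHD. The smallest edgeR adjusted p of the complex was 0.228 in UXS1 siRNA (SDHD) and 0.225 in MRPL42 siRNA (SDHB). No source used here states whether strand was kept, so reads of overlapping genes cannot be assigned with certainty. This touches 18 of the 44 tested members, whose gene bodies overlap another protein-coding gene of the table in GENCODE 29, 14 of them on the opposite strand: SDHC, SDHD, UQCR11, UQCRQ, COX4I1, COX6A1, COX6C, ATP5F1A, ATP5F1E, ATP5ME, ATP5MF, ATP5MF-PTCD1, ATP5MG, ATP5MK, ATP5PB, ATP5PD, ATP5PF and ATP5PO.

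In complex III the small subunits UQCR11 and UQCRQ had the highest log2 fold changes and the large core subunit UQCRC2 the lowest. UQCR11 (chromosome 19, 1597172 to 1605490, minus strand) and UQCRQ (chromosome 5, 132866560 to 132868031, plus strand) are small subunits without a redox centre. UQCR11 had 109, 116 and 85.4 CPM in the UXS1 siRNA libraries and 154, 58.6 and 114 CPM in the MRPL42 siRNA libraries, against 48.2, 47.3 and 44.7 CPM in the control libraries. UQCRQ had 71.3, 79.8 and 67.7 CPM in the UXS1 siRNA libraries and 97.7, 45.5 and 83.7 CPM in the MRPL42 siRNA libraries, against 39.4, 35.5 and 34.4 CPM in the control libraries. For both genes every UXS1 siRNA and MRPL42 siRNA library was above every control library, and MRPL42 siRNA library b was the lowest of the 6. The log2 fold changes of UQCR11 were 1.15 (SE 0.28) in UXS1 siRNA and 1.22 (SE 0.28) in MRPL42 siRNA, with edgeR adjusted p-values of 0.171 and 0.135. Those of UQCRQ were 1.00 (SE 0.23) in UXS1 siRNA and 1.06 (SE 0.23) in MRPL42 siRNA, with edgeR adjusted p-values of 0.171 and 0.135. UQCRB had 145, 146 and 155 CPM in the UXS1 siRNA libraries and 154, 143 and 155 CPM in the MRPL42 siRNA libraries, against 123, 124 and 126 CPM in the control libraries. UQCRB, a subunit at the ubiquinone-binding side, had tight groups that did not overlap, with log2 fold changes of 0.26 (SE 0.06) in UXS1 siRNA and 0.27 (SE 0.06) in MRPL42 siRNA, with edgeR adjusted p-values of 0.171 and 0.135. UQCRC2 had 186, 185 and 196 CPM in the UXS1 siRNA libraries and 184, 191 and 188 CPM in the MRPL42 siRNA libraries, against 182, 191 and 188 CPM in the control libraries. UQCRC2, a core protein related to the subunits of the mitochondrial processing peptidase, overlapped control with both targeting siRNAs, with log2 fold changes of 0.01 (SE 0.06) in UXS1 siRNA and 0.0022 (SE 0.06) in MRPL42 siRNA. The 4 members of the complex not named here by library (CYC1, UQCR10, UQCRC1 and UQCRFS1) had log2 fold changes of 0.13 to 0.62 in UXS1 siRNA and 0.17 to 0.76 in MRPL42 siRNA. UQCRFS1 is the Rieske iron-sulfur protein and CYC1 is cytochrome c1, the redox subunits that the nucleus provides.

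UQCRH, the acidic hinge protein that helps cytochrome c dock, has a near copy, UQCRHL, which has no intron. Their coding sequences of 276 bases differ at 4 bases (98.6% identical) and at 3 residues, so reads of one can be assigned to the other. They are shown 5′ to 3′ from the GENCODE 29 transcripts, with capitals where the 2 sequences differ.
UQCRH: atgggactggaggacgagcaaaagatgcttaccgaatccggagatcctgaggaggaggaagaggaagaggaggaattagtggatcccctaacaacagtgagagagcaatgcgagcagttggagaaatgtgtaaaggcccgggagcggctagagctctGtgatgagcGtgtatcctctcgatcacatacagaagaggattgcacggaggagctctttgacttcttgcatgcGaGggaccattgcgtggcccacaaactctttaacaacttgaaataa
UQCRHL: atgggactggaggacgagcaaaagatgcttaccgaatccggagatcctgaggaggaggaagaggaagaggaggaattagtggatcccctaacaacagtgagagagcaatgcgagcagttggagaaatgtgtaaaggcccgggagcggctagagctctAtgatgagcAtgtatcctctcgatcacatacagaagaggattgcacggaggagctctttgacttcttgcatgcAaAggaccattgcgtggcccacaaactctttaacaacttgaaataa
UQCRH had 80.4, 85.7 and 71.1 CPM in the UXS1 siRNA libraries and 101, 64.1 and 80.1 CPM in the MRPL42 siRNA libraries, against 60.0, 57.5 and 60.0 CPM in the control libraries. All UXS1 siRNA and MRPL42 siRNA libraries were above all control libraries, and the log2 fold changes were 0.42 (SE 0.14) in UXS1 siRNA and 0.47 (SE 0.14) in MRPL42 siRNA. UQCRHL had 18.0 estimated counts over all libraries, with 2 to 3 in a UXS1 siRNA library and 1 to 3.01 in an MRPL42 siRNA library, against 0 to 2 in a control library, a level at which no change can be read.

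Complex IV had the highest median as counted. With the coding length correction, chosen after the data were seen, it was still highest, at 0.20 in UXS1 siRNA and 0.29 in MRPL42 siRNA. The next was complex V, at 0.16 and 0.22. With the transcript length correction it was highest in UXS1 siRNA, at 0.21 for complex IV against 0.16 for complex III. In MRPL42 siRNA that correction put complex III, at 0.23, above the 0.18 of complex IV. Its nuclear subunits surround a core made in mitochondria, and several exist as pairs of isoforms for different tissues. COX6B1 (chromosome 19, 35648223 to 35658861, plus strand) lies on the intermembrane side, facing cytochrome c. COX6B1 had 122, 132 and 102 CPM in the UXS1 siRNA libraries and 179, 69.1 and 132 CPM in the MRPL42 siRNA libraries, against 61.2, 63.2 and 49.5 CPM in the control libraries. COX7A2 had 76.1, 75.1 and 71.5 CPM in the UXS1 siRNA libraries and 111, 49.2 and 77.0 CPM in the MRPL42 siRNA libraries, against 39.2, 38.6 and 40.9 CPM in the control libraries. COX7A2 (chromosome 6, 75237675 to 75250323, minus strand) is the broadly expressed isoform of a small membrane subunit, and for both genes all UXS1 siRNA and MRPL42 siRNA libraries were above all control libraries. The log2 fold changes of COX6B1 were 1.04 (SE 0.28) in UXS1 siRNA and 1.13 (SE 0.28) in MRPL42 siRNA, with edgeR adjusted p-values of 0.174 and 0.135. Those of COX7A2 were 0.91 (SE 0.23) in UXS1 siRNA and 1.00 (SE 0.23) in MRPL42 siRNA, with edgeR adjusted p-values of 0.171 and 0.135. COX7B had 181, 188 and 163 CPM in the UXS1 siRNA libraries and 229.6, 126 and 196 CPM in the MRPL42 siRNA libraries, against 101, 98.0 and 93.4 CPM in the control libraries. COX7B (chromosome X, 77899438 to 77907373, plus strand), a subunit needed for assembly of the complex, had the smallest p of all members, with log2 fold changes of 0.86 (SE 0.18) in UXS1 siRNA and 0.92 (SE 0.18) in MRPL42 siRNA, with edgeR adjusted p-values of 0.157 and 0.135. COX6C had 98.0, 120.4 and 96.1 CPM in the UXS1 siRNA libraries and 118, 91.6 and 116 CPM in the MRPL42 siRNA libraries, against 81.1, 71.2 and 75.3 CPM in the control libraries. COX6A1 had 404, 375 and 321 CPM in the UXS1 siRNA libraries and 560.4, 229 and 366 CPM in the MRPL42 siRNA libraries, against 202, 216 and 203 CPM in the control libraries. COX6A1 is the broadly expressed isoform of its subunit, and COX6C has 17 pseudogenes by name, so its reads are uncertain; both genes did not overlap control in UXS1 siRNA or MRPL42 siRNA. Their log2 fold changes were 0.47 (SE 0.12) in UXS1 siRNA and 0.51 (SE 0.12) in MRPL42 siRNA for COX6C and 0.83 (SE 0.26) in UXS1 siRNA and 0.90 (SE 0.26) in MRPL42 siRNA for COX6A1.

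COX8A had 179, 199 and 160.0 CPM in the UXS1 siRNA libraries and 245, 135 and 211 CPM in the MRPL42 siRNA libraries, against 135, 125 and 115 CPM in the control libraries. COX4I1 had 254, 257 and 220.4 CPM in the UXS1 siRNA libraries and 304, 203 and 270.2 CPM in the MRPL42 siRNA libraries, against 197, 185 and 184 CPM in the control libraries. COX8A is a very small membrane subunit and COX4I1 a larger subunit that binds nucleotides, and the control range reached MRPL42 siRNA library b for COX8A but not for COX4I1. Log2 fold changes were 0.52 (SE 0.19) in UXS1 siRNA and 0.66 (SE 0.19) in MRPL42 siRNA for COX8A and 0.37 (SE 0.13) in UXS1 siRNA and 0.46 (SE 0.13) in MRPL42 siRNA for COX4I1. COX5A had 92.3, 96.9 and 87.9 CPM in the UXS1 siRNA libraries and 101, 83.0 and 103 CPM in the MRPL42 siRNA libraries, against 86.4, 86.4 and 78.1 CPM in the control libraries. COX7A2L had 97.4, 101 and 99.0 CPM in the UXS1 siRNA libraries and 100.4, 92.7 and 97.0 CPM in the MRPL42 siRNA libraries, against 88.1, 85.9 and 85.8 CPM in the control libraries. COX7A2L, a relative of COX7A2 that joins complexes III and IV in supercomplexes, differed little but without overlap, while COX5A, which binds a thyroid hormone metabolite, overlapped control in MRPL42 siRNA. Log2 fold changes were 0.14 (SE 0.09) in UXS1 siRNA and 0.19 (SE 0.09) in MRPL42 siRNA for COX5A and 0.20 (SE 0.06) in UXS1 siRNA and 0.16 (SE 0.06) in MRPL42 siRNA for COX7A2L. COX5B and COX7C, the members of this complex outside the naming rule, had log2 fold changes of 0.94 and 0.63 in UXS1 siRNA and 0.95 and 0.71 in MRPL42 siRNA. The smallest edgeR adjusted p of the complex was 0.157 in UXS1 siRNA and 0.135 in MRPL42 siRNA.

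Isoforms that belong to other tissues were at or near 0 with 1 exception. COX4I2, of lung and of cells short of oxygen, COX6A2 and COX7A1, of heart and skeletal muscle, and COX8C, of testis, were listed at 0. COX6B2, of testis, had 2 to 3 estimated counts in a UXS1 siRNA library and 0 to 3 in an MRPL42 siRNA library, against 2 to 10 in a control library. COX7B2, also described in testis, was measured in every library. COX7B2 had 9.45, 10.6 and 9.26 CPM in the UXS1 siRNA libraries and 11.6, 6.72 and 11.2 CPM in the MRPL42 siRNA libraries, against 7.58, 7.61 and 5.94 CPM in the control libraries. MRPL42 siRNA library b lay within the control range and the other UXS1 siRNA and MRPL42 siRNA libraries above it, with log2 fold changes of 0.48 (SE 0.20) in UXS1 siRNA and 0.49 (SE 0.20) in MRPL42 siRNA. Per transcript length, COX7B2 stood at 16.9 ± 1.29 CPM per kilobase in UXS1 siRNA and 17.0 ± 4.71 CPM per kilobase in MRPL42 siRNA, against 12.2 ± 1.65 CPM per kilobase in control siRNA (SD, n = 3 each), and its isoform COX7B at 122 ± 8.94 CPM per kilobase in UXS1 siRNA and 126 ± 36.2 CPM per kilobase in MRPL42 siRNA, against 66.8 ± 2.63 CPM per kilobase in control siRNA.

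In complex V the small subunits ATP5MF and ATP5ME had the highest log2 fold changes, and the large head subunits alpha and beta stood near control. Its catalytic head consists mainly of the subunits alpha and beta, encoded by ATP5F1A and ATP5F1B, and its membrane part holds a ring of subunit c and a group of small subunits. ATP5MF (subunit f, chromosome 7, 99448475 to 99466331, minus strand) and ATP5ME (subunit e, chromosome 4, 672436 to 674338, minus strand) sit in that part. ATP5MF had 158, 175 and 135 CPM in the UXS1 siRNA libraries and 211, 102 and 181 CPM in the MRPL42 siRNA libraries, against 87.6, 75.3 and 66.5 CPM in the control libraries. ATP5ME had 6.36, 8.99 and 6.28 CPM in the UXS1 siRNA libraries and 10.7, 4.78 and 10.1 CPM in the MRPL42 siRNA libraries, against 4.23, 4.35 and 2.76 CPM in the control libraries. For both genes all UXS1 siRNA and MRPL42 siRNA libraries were above all control libraries, with MRPL42 siRNA library b the lowest, and ATP5ME is a member of low counts. The log2 fold changes of ATP5MF were 1.03 (SE 0.23) in UXS1 siRNA and 1.11 (SE 0.23) in MRPL42 siRNA, with edgeR adjusted p-values of 0.171 and 0.135. Those of ATP5ME were 0.94 (SE 0.31) in UXS1 siRNA and 1.18 (SE 0.31) in MRPL42 siRNA, with edgeR adjusted p-values of 0.203 and 0.137. ATP5MF-PTCD1 had 62.8, 58.8 and 57.5 CPM in the UXS1 siRNA libraries and 56.2, 57.0 and 57.6 CPM in the MRPL42 siRNA libraries, against 60.4, 57.0 and 66.9 CPM in the control libraries. This readthrough gene shares exons with ATP5MF and with PTCD1, so its reads and those of ATP5MF are uncertain, and UXS1 siRNA and MRPL42 siRNA both overlapped control, with log2 fold changes of -0.04 (SE 0.07) in UXS1 siRNA and -0.11 (SE 0.07) in MRPL42 siRNA.

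ATP5MJ had 40.3, 45.2 and 40.3 CPM in the UXS1 siRNA libraries and 50.6, 33.2 and 44.9 CPM in the MRPL42 siRNA libraries, against 28.8, 26.1 and 25.6 CPM in the control libraries. ATP5PD had 129, 135 and 118 CPM in the UXS1 siRNA libraries and 144, 114 and 133 CPM in the MRPL42 siRNA libraries, against 98.8, 99.2 and 93.0 CPM in the control libraries. ATP5PF had 45.0, 41.2 and 42.5 CPM in the UXS1 siRNA libraries and 46.2, 36.1 and 41.5 CPM in the MRPL42 siRNA libraries, against 31.7, 34.2 and 29.9 CPM in the control libraries. ATP5MJ is a small membrane protein of the complex, and ATP5PD (subunit d) and ATP5PF (coupling factor 6) belong to the stalk that holds the head. None of the 3 genes overlapped control in UXS1 siRNA or MRPL42 siRNA. Log2 fold changes were 0.64 (SE 0.14) in UXS1 siRNA and 0.68 (SE 0.14) in MRPL42 siRNA for ATP5MJ, 0.39 (SE 0.09) in UXS1 siRNA and 0.43 (SE 0.09) in MRPL42 siRNA for ATP5PD and 0.42 (SE 0.10) in UXS1 siRNA and 0.37 (SE 0.10) in MRPL42 siRNA for ATP5PF. ATP5IF1 had 24.2, 32.1 and 24.8 CPM in the UXS1 siRNA libraries and 31.8, 22.2 and 32.3 CPM in the MRPL42 siRNA libraries, against 25.3, 23.4 and 25.3 CPM in the control libraries. ATP5IF1, the inhibitor that stops the enzyme from running backwards and splitting ATP, overlapped control with both targeting siRNAs, with log2 fold changes of 0.14 (SE 0.16) in UXS1 siRNA and 0.22 (SE 0.16) in MRPL42 siRNA, with edgeR adjusted p-values of 0.674 and 0.425. The 9 members outside the naming rule (ATP5F1A to ATP5F1E, ATP5MG, ATP5MK, ATP5PB and ATP5PO) had log2 fold changes of 0.0025 to 0.63 in UXS1 siRNA and 0.000405 to 0.71 in MRPL42 siRNA. The lowest of these were the large head subunits: ATP5F1A at 0.0025 and ATP5F1B at 0.03 in UXS1 siRNA, the 2 members with the longest coding sequences of the complex after the readthrough gene. The smallest edgeR adjusted p of the complex was 0.165 in UXS1 siRNA and 0.135 in MRPL42 siRNA.

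Subunit c, which forms the rotating ring, is encoded by ATP5MC1, ATP5MC2 and ATP5MC3. The 3 genes make the same mature protein behind different import sequences. The stretch of 231 bases that encodes their 77 shared residues is shown from the GENCODE 29 transcripts, since the genes can be told apart there only by synonymous bases, and capitals mark positions where the 3 are not all alike.
ATP5MC1: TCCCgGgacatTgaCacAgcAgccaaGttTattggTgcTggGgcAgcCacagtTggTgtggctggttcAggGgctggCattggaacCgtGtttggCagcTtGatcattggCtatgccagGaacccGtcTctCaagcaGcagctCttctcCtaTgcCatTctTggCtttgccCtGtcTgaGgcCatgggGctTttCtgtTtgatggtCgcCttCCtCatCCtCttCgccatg
ATP5MC2: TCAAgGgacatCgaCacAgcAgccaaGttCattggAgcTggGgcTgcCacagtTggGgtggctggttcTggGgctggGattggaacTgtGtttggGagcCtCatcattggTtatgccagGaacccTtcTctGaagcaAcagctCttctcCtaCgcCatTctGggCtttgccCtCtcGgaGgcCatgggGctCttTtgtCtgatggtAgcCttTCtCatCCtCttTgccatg
ATP5MC3: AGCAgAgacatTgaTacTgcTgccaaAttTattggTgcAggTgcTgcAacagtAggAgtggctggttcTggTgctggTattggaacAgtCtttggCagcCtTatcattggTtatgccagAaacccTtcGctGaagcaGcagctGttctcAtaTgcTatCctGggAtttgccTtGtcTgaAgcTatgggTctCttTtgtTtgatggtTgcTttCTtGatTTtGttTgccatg
ATP5MC1 and ATP5MC2 differ at 27 of these bases (88.3% identical), and ATP5MC3 differs from each of them at 46 (80.1% identical). Reads from these bases that hold a differing position can be assigned, and others cannot. ATP5MC1 had 48.6, 49.3 and 41.9 CPM in the UXS1 siRNA libraries and 52.3, 36.2 and 48.6 CPM in the MRPL42 siRNA libraries, against 33.8, 32.1 and 23.3 CPM in the control libraries. ATP5MC2 had 171, 191 and 168 CPM in the UXS1 siRNA libraries and 226, 145 and 184 CPM in the MRPL42 siRNA libraries, against 130.2, 129 and 109.6 CPM in the control libraries. ATP5MC3 had 92.2, 108 and 93.2 CPM in the UXS1 siRNA libraries and 118, 82.8 and 106 CPM in the MRPL42 siRNA libraries, against 78.3, 73.1 and 76.6 CPM in the control libraries. All UXS1 siRNA and MRPL42 siRNA libraries were above all control libraries for each of the 3 genes. The log2 fold changes were 0.65 (SE 0.17) in UXS1 siRNA and 0.62 (SE 0.17) in MRPL42 siRNA for ATP5MC1, 0.52 (SE 0.15) in UXS1 siRNA and 0.59 (SE 0.15) in MRPL42 siRNA for ATP5MC2 and 0.37 (SE 0.12) in UXS1 siRNA and 0.43 (SE 0.12) in MRPL42 siRNA for ATP5MC3. ATP5MC1 has 7 pseudogenes by name and ATP5MC2 has 3. Per transcript length, ATP5MC2 was the highest of the 3 mRNAs, at 201 ± 14.7 CPM per kilobase in UXS1 siRNA and 211 ± 46.1 CPM per kilobase in MRPL42 siRNA, against 140.0 ± 13.2 CPM per kilobase in control siRNA (SD, n = 3 each). ATP5MC1 stood at 76.9 ± 6.69 CPM per kilobase in UXS1 siRNA and 75.4 ± 13.9 CPM per kilobase in MRPL42 siRNA, against 49.1 ± 9.27 CPM per kilobase in control siRNA. ATP5MC3 stood at 116 ± 10.7 CPM per kilobase in UXS1 siRNA and 121 ± 21.3 CPM per kilobase in MRPL42 siRNA, against 90.2 ± 3.14 CPM per kilobase in control siRNA, and its SDs did not overlap those of ATP5MC1 in any group.

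Levels can be compared between genes only per length, here as CPM per kilobase of the annotated transcript. The annotated transcripts of SDHC (13566 bases) and UQCRB (5575 bases) are long isoforms, many times their coding sequences, so these genes are left out of the order. ATP5F1B, the catalytic subunit, had the highest mean in control siRNA, and stood at 578 ± 9.07 CPM per kilobase in UXS1 siRNA and 589 ± 16.7 CPM per kilobase in MRPL42 siRNA, against 565 ± 22.5 CPM per kilobase in control siRNA (SD, n = 3 each). COX6A1 had the next highest mean in control siRNA, and stood at 641 ± 74.3 CPM per kilobase in UXS1 siRNA and 674 ± 291 CPM per kilobase in MRPL42 siRNA, against 362 ± 13.5 CPM per kilobase in control siRNA. In UXS1 siRNA and MRPL42 siRNA the means of these genes stood in the other order, with overlapping SDs. The lowest members in control siRNA were ATP5ME and COX7B2, at 10.4 and 12.2 CPM per kilobase, whose SDs overlap. SDHA, SDHB and SDHD of complex II stood close together, between 64.8 and 88.2 CPM per kilobase in UXS1 siRNA and between 66.3 and 79.3 in MRPL42 siRNA, against 63.1 to 76.6 in control siRNA.

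**Figure D2:**
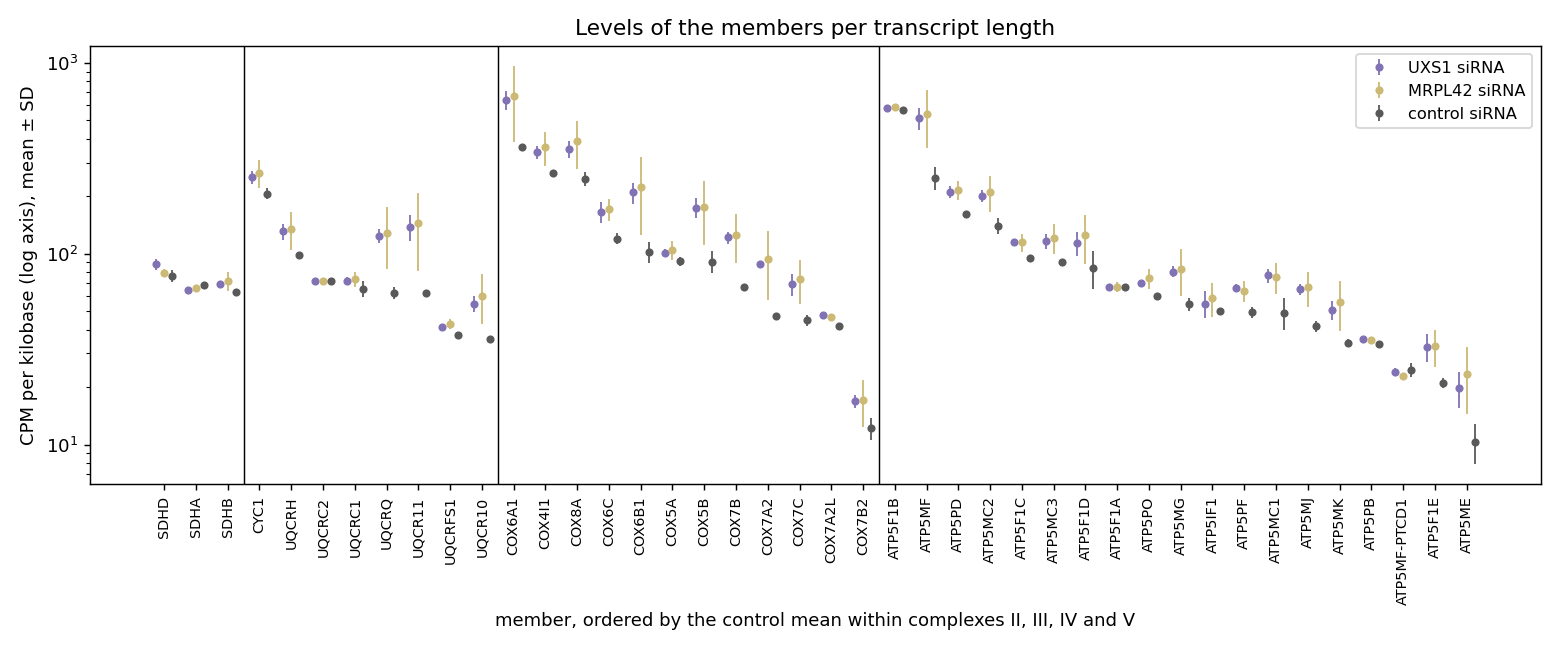
CPM per kilobase of annotated transcript (mean and SD, n = 3 libraries) of each tested member but SDHC and UQCRB in UXS1 siRNA, MRPL42 siRNA and control siRNA, on a log axis and ordered by the control mean within complexes II, III, IV and V. Both targeting siRNA means lie above control for most small subunits, while ATP5F1B, ATP5F1A, UQCRC2 and SDHA lie close to control, and the SDs of MRPL42 siRNA are the widest for most members.

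Position relative to control went with transcript length. The annotated transcript (the median of a gene's principal transcripts in GENCODE 29) was under 1000 bases for 25 members, 1000 to 2000 bases for 10 and 2000 bases or more for 9. In UXS1 siRNA the median log2 fold changes of these classes were 0.52, 0.28 and 0.07, and the other genes of the same classes had medians of 0.40 (708 genes), 0.11 (2622 genes) and -0.04 (9199 genes). In MRPL42 siRNA the members stood at 0.62, 0.32 and 0.04 and the other genes at 0.42, 0.13 and -0.06. Short genes outside the respiratory complexes also lay mostly above control: 88.3% of the 708 were above 0 in UXS1 siRNA and 88.7% in MRPL42 siRNA. Over the 44 members, Spearman's rho of log2 fold change with transcript length was -0.66 in UXS1 siRNA and -0.68 in MRPL42 siRNA, and with coding length -0.79 in both. The members share the libraries, so these values describe this data set and carry no test.

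The 15 members with a coding sequence under 300 bases had median log2 fold changes of 0.63 in UXS1 siRNA and 0.71 in MRPL42 siRNA, and the 7 with 900 bases or more had medians of 0.01 and 0.0022. Other genes with a coding sequence under 300 bases had medians of 0.33 and 0.28 (266 genes), and those of 900 bases or more had -0.04 in both (9197 genes). Members of like coding length still differed as counted. SDHD and SDHC, with 480.0 and 510.0 coding bases, stood at 0.20 and 0.07 in UXS1 siRNA, while COX4I1 and ATP5PD, with 510.0 and 486 coding bases, stood at 0.37 and 0.39. Their annotated transcripts were of unlike length, with 1439 and 13566 bases for SDHD and SDHC and 716 and 603 for COX4I1 and ATP5PD. With the transcript length correction the order turned in UXS1 siRNA, to 0.05 and 0.15 for SDHD and SDHC and -0.09 and -0.14 for COX4I1 and ATP5PD. In MRPL42 siRNA the corrected values were -0.11 and 0.14 for SDHD and SDHC and -0.03 and -0.13 for COX4I1 and ATP5PD. There SDHD stayed below COX4I1. COX5A, with 453 coding bases on a transcript of 918, stood at 0.14 as counted in UXS1 siRNA and at -0.20 when corrected. ATP5F1E, subunit epsilon, has the shortest coding sequence, 156 bases, on an annotated transcript of 1878 bases, and its log2 fold changes were 0.63 in UXS1 siRNA and 0.64 in MRPL42 siRNA.

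**Figure D3:**
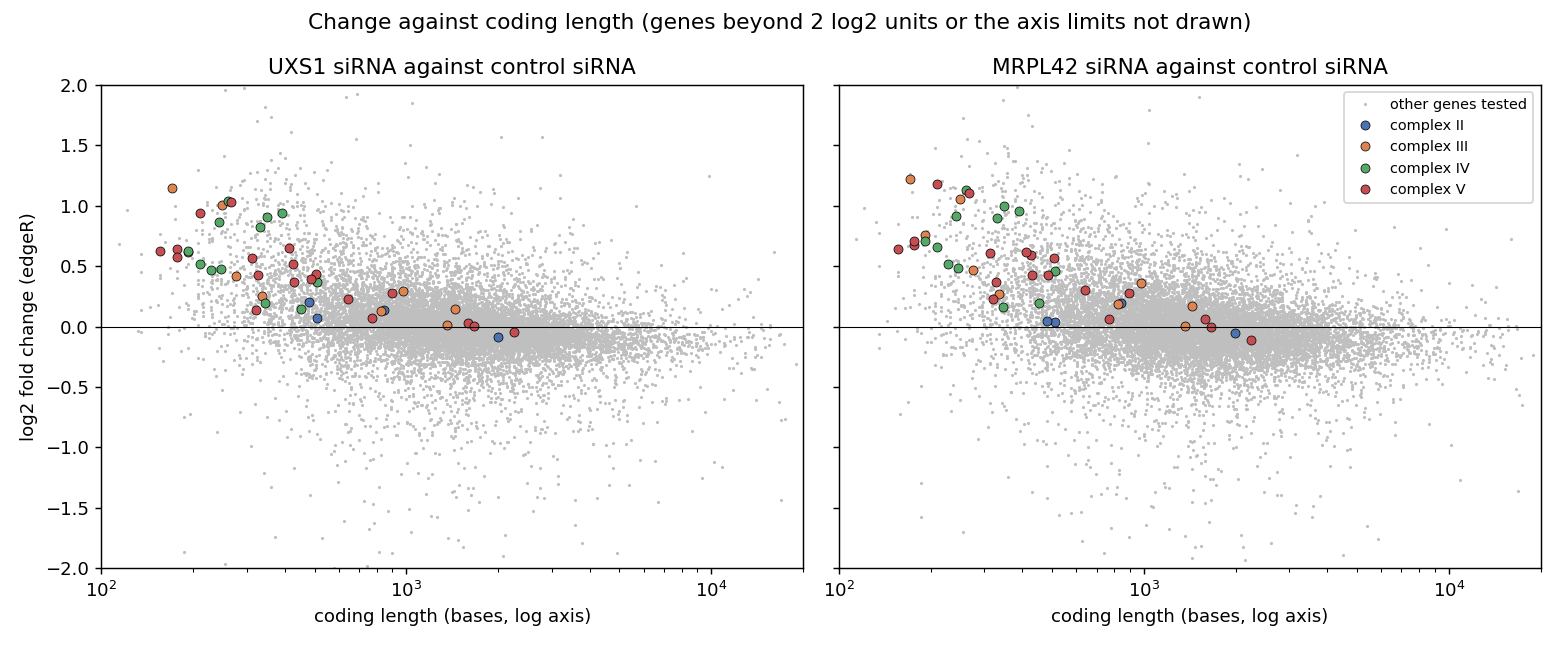
Log2 fold change (edgeR) of each gene against its coding length (log axis), for UXS1 siRNA and for MRPL42 siRNA against control siRNA, with members coloured by complex and other genes in grey. The 15 members under 300 coding bases lie at 0.42 or more in UXS1 siRNA and 0.47 or more in MRPL42 siRNA, with UQCR11 (1.15 and 1.22) at the top, and the 7 of 900 bases or more lie between -0.09 and 0.29 and between -0.11 and 0.36.

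Much of the members' shift was gone once transcript length was corrected for. With offsets from a lowess curve fitted per library on annotated transcript length, the median of the members was 0.09 in UXS1 siRNA, with 28 members above 0, and 0.10 in MRPL42 siRNA, with 27 above 0. A lowess curve on coding length, chosen after the data were seen, left medians of 0.14 and 0.22, with 37 members above 0 in each. No member passed the edgeR threshold under either correction. COX7B kept log2 fold changes of 0.72 in UXS1 siRNA and 0.75 in MRPL42 siRNA with transcript length and of 0.50 and 0.55 with coding length. UQCR11 kept 0.71 and 0.71 with transcript length and 0.70 and 0.73 with coding length. ATP5MF depended on which length was used, with 0.18 and 0.17 by its transcript of 305 bases and 0.69 and 0.76 by its coding sequence of 267 bases. ATP5IF1 moved below 0, to -0.50 and -0.45 with transcript length and -0.16 and -0.06 with coding length. Median log2 fold changes of complexes II, III, IV and V by transcript length were -0.03, 0.16, 0.21 and 0.05 in UXS1 siRNA and -0.07, 0.23, 0.18 and 0.06 in MRPL42 siRNA.

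**Figure D4:**
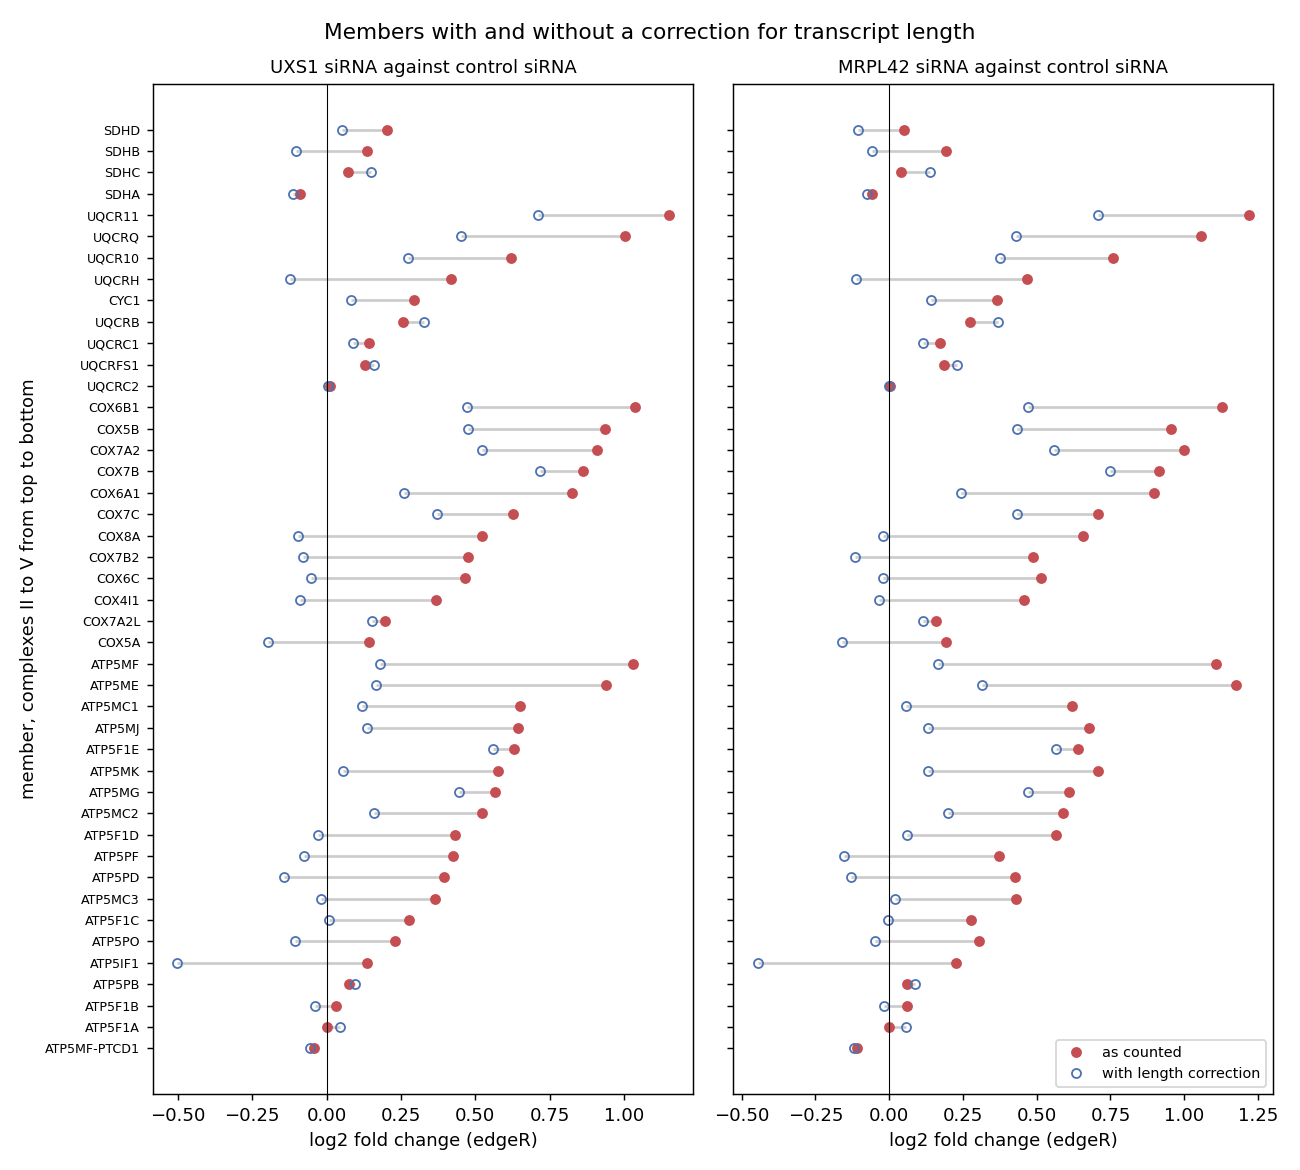
Log2 fold change of each tested member as counted (filled) and with a correction for annotated transcript length (open), for UXS1 siRNA and MRPL42 siRNA against control siRNA, with complexes II to V from top to bottom. Most open points lie nearer to 0, while UQCR11 (0.71 and 0.71) and COX7B (0.72 and 0.75) stay to the right and ATP5IF1 (-0.50 and -0.45) goes to the left.

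The members moved by library as well as by group. Their mean log2 CPM, relative to the mean over all libraries, was 0.15, 0.23 and 0.05 in libraries a, b and c of UXS1 siRNA and 0.39, -0.16 and 0.25 in those of MRPL42 siRNA, against -0.25, -0.29 and -0.37 in those of control siRNA. MRPL42 siRNA library b thus lay closer to the controls than to the other libraries of its group. Other genes with transcripts under 1000 bases gave 0.15, 0.22 and 0.04 in UXS1 siRNA and 0.38, -0.14 and 0.22 in MRPL42 siRNA, against -0.21, -0.27 and -0.37 in control siRNA. The slope of relative log2 CPM per doubling of transcript length over all genes was -0.03, -0.07 and -0.0067 in UXS1 siRNA and -0.10, 0.04 and -0.08 in MRPL42 siRNA, against 0.05, 0.07 and 0.13 in control siRNA. The library with the highest level of the members had the most negative slope and the library with the lowest level the most positive one. Complex II stayed between -0.11 and 0.07 in all libraries. What part of the members' shift goes with this length difference between libraries, and what part with the siRNA, was not tested. The length correction is fitted per library without regard to group and takes out any change that goes with length, so it cannot tell these parts apart.

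**Figure D5:**
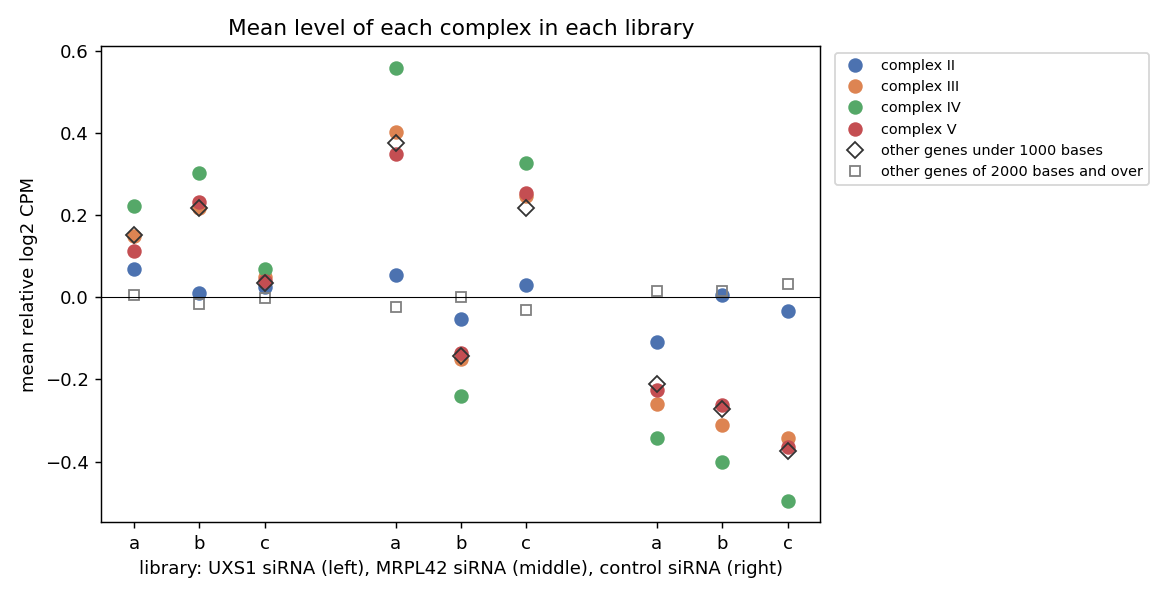
Mean relative log2 CPM of each complex in each library, with other genes under 1000 bases (diamonds) and of 2000 bases or more (squares). Complexes III, IV and V follow the diamonds from library to library, with complex IV farthest from 0, and complex II stays near 0.

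The number of members past the threshold depended on the test and on single libraries. DESeq2 called 18 members higher in UXS1 siRNA, where 2.48% of all genes were called higher, and 25 in MRPL42 siRNA, where 4.12% were. Without MRPL42 siRNA library b, edgeR called 20 members higher in UXS1 siRNA (2.48% of all genes) and 30 in MRPL42 siRNA (5.85% of all genes). Limma-voom called no member with either targeting siRNA. Without control library c, no member was called with either targeting siRNA (1.58% and 1.33% of all genes, lowest member adjusted p 0.0694 and 0.0557 in edgeR). Without both of these libraries, a choice made after the data were seen, edgeR called 27 members higher in UXS1 siRNA (6.19% of all genes) and 33 in MRPL42 siRNA (9.88% of all genes). In that fit SDHB was the 1 member of complex II called, in MRPL42 siRNA. With only the 6 libraries compared, 13 members were higher in UXS1 siRNA (1.84% of all genes), and 0 members were called in MRPL42 siRNA. With the coding length correction and without control library c, also chosen after the data were seen, 1 member was called in UXS1 siRNA (2.06% of all genes) and 2 in MRPL42 siRNA (1.95% of all genes). COX7B was higher in both, with log2 fold changes of 0.51 in UXS1 siRNA and 0.56 in MRPL42 siRNA and edgeR adjusted p-values of 0.0293 and 0.0229. ATP5MF was higher in MRPL42 siRNA at 0.71 (edgeR adjusted p = 0.0472), and stood at 0.64 in UXS1 siRNA (0.0685).

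Between the targeting siRNAs, UXS1 siRNA against MRPL42 siRNA, no member passed the edgeR threshold, as did 0.0% of all genes, and no member had an unadjusted p below 0.05. The median log2 fold change of the members was -0.05, with values from -0.24 (ATP5ME) to 0.15 (SDHD). SDHD was the 1 member whose groups did not overlap, with UXS1 siRNA higher, and 43 members overlapped. The share of all genes without overlap was not counted for this comparison, so the missing overlap does not set SDHD apart from other genes. Medians per complex were -0.0009 for complex II, -0.05 for complex III, -0.06 for complex IV and -0.03 for complex V. Without MRPL42 siRNA library b the median of the members was -0.19, with none past the adjusted threshold. Other genes with transcripts under 1000 bases also lay lower in that library, at a mean relative log2 CPM of -0.14, against 0.38 and 0.22 in MRPL42 siRNA libraries a and c.

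Other genes of the pathway were read from lists chosen with earlier results of these data known. Assembly factors of complexes II to IV had 0 of 35 tested genes past the edgeR threshold with either targeting siRNA, with 27 above 0 and medians of 0.27 in UXS1 siRNA and 0.15 in MRPL42 siRNA (0.13 and 0.07 with the transcript length correction). An unadjusted edgeR p below 0.05 was reached by 16 and 14 of them. DESeq2 called 8 and 8 higher, and edgeR without MRPL42 siRNA library b and control library c called 12 and 16 higher. Of all 12657 genes, 2249 and 2561 reached that unadjusted p, and DESeq2 called 2.48% and 4.12% higher. Without both libraries edgeR called 6.19% and 9.88% of all genes higher. These shares also apply to the list counts below. CMC2 had 50.2, 50.9 and 50.2 CPM in the UXS1 siRNA libraries and 58.6, 45.6 and 52.7 CPM in the MRPL42 siRNA libraries, against 40.1, 39.3 and 36.2 CPM in the control libraries. CMC2, a twin-cysteine protein of complex IV assembly, did not overlap control in UXS1 siRNA or MRPL42 siRNA, with log2 fold changes of 0.39 (SE 0.09) in UXS1 siRNA and 0.44 (SE 0.09) in MRPL42 siRNA, with edgeR adjusted p-values of 0.171 and 0.135. With the transcript length correction its log2 fold changes were -0.03 and 0.0067. COX14 had 37.4, 38.9 and 33.9 CPM in the UXS1 siRNA libraries and 53.8, 24.3 and 41.2 CPM in the MRPL42 siRNA libraries, against 21.1, 20.0 and 13.9 CPM in the control libraries. COX14, a small membrane protein that stabilises newly made COX1, had log2 fold changes of 1.00 (SE 0.26) in UXS1 siRNA and 1.12 (SE 0.26) in MRPL42 siRNA, and 0.53 and 0.58 with the transcript length correction. TACO1 had 39.9, 42.8 and 41.5 CPM in the UXS1 siRNA libraries and 43.0, 39.4 and 41.5 CPM in the MRPL42 siRNA libraries, against 36.2, 32.4 and 29.0 CPM in the control libraries. TACO1, an activator of COX1 translation, had log2 fold changes of 0.35 (SE 0.09) in UXS1 siRNA and 0.35 (SE 0.09) in MRPL42 siRNA, and 0.21 and 0.20 with the transcript length correction. Of 6 assembly factors of ATP synthase none passed in edgeR (2 and 2 at an unadjusted p below 0.05), DESeq2 called 0 and 1 higher, and edgeR without both libraries 2 and 2. Their medians were 0.22 and 0.10 (0.28 and 0.14 with the transcript length correction), and FMC1 stood at 0.79 and 0.82 and ATPAF2 at 0.45 and 0.35. With that correction FMC1 stood at 0.57 and 0.58 and ATPAF2 at 0.32 and 0.22. Of 14 electron carriers and supercomplex factors none passed in edgeR (4 and 4 at an unadjusted p below 0.05), DESeq2 called 1 and 3 higher, and edgeR without both libraries 4 and 3. Their medians were 0.15 and 0.05 (-0.01 and -0.06 with the transcript length correction). NDUFA4, now counted to complex IV, stood at 0.55 and 0.54, HIGD2A, a supercomplex factor, at 0.47 and 0.59, and ETFB, which carries electrons from fatty acid oxidation, at 0.51 and 0.60. With the transcript length correction NDUFA4 stood at 0.51 and 0.50, HIGD2A at -0.02 and 0.06, and ETFB at 0.16 and 0.22.

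The partner subunits made on the mitochondrial ribosome showed no such shift. None of the 6 mitochondrial mRNAs of complexes III to V (MT-CYB, MT-CO1, MT-CO2, MT-CO3, MT-ATP6 and MT-ATP8) passed the edgeR threshold, and their medians were 0.01 in UXS1 siRNA and 0.08 in MRPL42 siRNA, as counted, with 3 and 5 of 6 above 0. In edgeR 0 and 1 of them had an unadjusted p below 0.05, and neither DESeq2 nor edgeR without both libraries called any. MT-CO3 had 5589, 6011 and 5869 CPM in the UXS1 siRNA libraries and 5948, 5827 and 6024 CPM in the MRPL42 siRNA libraries, against 5266, 5565 and 5126 CPM in the control libraries. MT-CO3, a core subunit of complex IV, had the smallest p of the 6 with both targeting siRNAs, with log2 fold changes of 0.13 (SE 0.06) in UXS1 siRNA and 0.16 (SE 0.06) in MRPL42 siRNA, with edgeR adjusted p-values of 0.298 and 0.202. MT-ATP8, a small membrane subunit of complex V, was next in UXS1 siRNA, with log2 fold changes of -0.26 in UXS1 siRNA and 0.11 in MRPL42 siRNA. With the transcript length correction the medians of the 6 were -0.36 and -0.33, so their direction depends on whether length is corrected for. The amount of protein made on the mitochondrial ribosome was not measured.

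Regulators of respiratory chain genes had 0 of 14 tested genes past the edgeR threshold, with medians of -0.02 in UXS1 siRNA and -0.03 in MRPL42 siRNA, which the transcript length correction turned to 0.03 in MRPL42 siRNA, and PPARGC1A had 1 count in total. At an unadjusted edgeR p below 0.05 there were 1 and 2 of them (2249 and 2561 of all 12657 genes). DESeq2 called 0 and 1 higher (2.48% and 4.12% of all genes). Without both libraries edgeR called 1 higher and 2 lower with each siRNA, where 6.19% and 9.88% of all genes were called higher. The share of all genes called lower in that fit is not given, so the 2 lower regulators are not set apart from other genes. NRF1 and GABPA, named here since both are known activators of respiratory genes, stood at -0.03 and 0.07 in UXS1 siRNA and at -0.03 and -0.23 in MRPL42 siRNA. CHCHD2 had 436, 468 and 388 CPM in the UXS1 siRNA libraries and 593, 315 and 455 CPM in the MRPL42 siRNA libraries, against 313, 304 and 269 CPM in the control libraries. CHCHD2, a small protein of the intermembrane space that also acts on the COX4I2 promoter, had log2 fold changes of 0.54 (SE 0.19) in UXS1 siRNA and 0.62 (SE 0.19) in MRPL42 siRNA, and 0.19 and 0.23 with the transcript length correction. HIF1A had 313, 293 and 319 CPM in the UXS1 siRNA libraries and 284, 331 and 277 CPM in the MRPL42 siRNA libraries, against 344, 364 and 330.5 CPM in the control libraries. HIF1A, the oxygen-sensing factor, had log2 fold changes of -0.17 (SE 0.08) in UXS1 siRNA and -0.22 (SE 0.08) in MRPL42 siRNA, with edgeR adjusted p-values of 0.312 and 0.189.

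Promoters were read because many respiratory genes are known to bind the factors NRF1 and GABPA, and YY1. RefSeq promoters of GRCh38.p14, from 250 bases before to 50 after the annotated start, were matched for 35 of the 44 tested members. The bases before the start are shown for UQCR11, the member with the largest log2 fold change, for COX7B, the one with the smallest p, and for UQCRC2, which stood at control level. They are written 5′ to 3′ on the gene's strand, and capitals mark matches to the motifs searched.
UQCR11 (chr19:1605463-1605712, minus strand): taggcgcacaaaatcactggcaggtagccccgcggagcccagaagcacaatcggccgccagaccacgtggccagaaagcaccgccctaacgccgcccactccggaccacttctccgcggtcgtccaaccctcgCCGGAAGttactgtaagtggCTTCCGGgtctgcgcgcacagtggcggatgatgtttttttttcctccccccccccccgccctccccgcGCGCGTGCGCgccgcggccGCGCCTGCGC
COX7B (chrX:77899218-77899467, plus strand): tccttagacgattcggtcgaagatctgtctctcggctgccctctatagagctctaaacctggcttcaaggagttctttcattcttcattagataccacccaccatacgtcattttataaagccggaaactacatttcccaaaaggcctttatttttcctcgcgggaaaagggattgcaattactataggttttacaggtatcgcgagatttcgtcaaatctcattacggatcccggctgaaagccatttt
UQCRC2 (chr16:21953111-21953360, plus strand): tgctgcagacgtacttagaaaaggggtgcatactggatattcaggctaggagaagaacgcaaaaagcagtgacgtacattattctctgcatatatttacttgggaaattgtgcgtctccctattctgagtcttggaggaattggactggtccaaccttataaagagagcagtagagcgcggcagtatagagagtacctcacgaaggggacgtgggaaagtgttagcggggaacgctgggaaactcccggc
The letters searched on both strands were GCGCA and GCGC parted by 1 base of any kind for NRF1, CCGGAAG for GABPA and other ETS factors, and AAGATGGCG for YY1. UQCR11 held 2 NRF1 matches and 2 ETS matches, and COX7B and UQCRC2 held none of the 3 motifs. An NRF1 match was found in 10 of the 35 member promoters (28.6%), against 6.28% of all promoters and 11.9% of those of the genes tested. An ETS match was found in 15 (42.9%), against 10.7% and 19.6%. A YY1 match was found in 3 (8.57%), against 1.85% and 3.98%. Members with an NRF1 match had a median log2 fold change of 0.25 in UXS1 siRNA and 0.29 in MRPL42 siRNA, against 0.52 and 0.59 in the 25 without one. Members with an ETS match had medians of 0.57 and 0.66, against 0.25 and 0.29 in the 20 without one. These matches are letters in a window and not measured binding sites, and members with and without them were not tested against each other.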

How the data were processed

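Poly(A) RNA libraries of HCCLM3 cells were sequenced in 3 groups of 3. The submitters' processing notes name fastp, HISAT2, Bowtie2, edgeR and the build hg38, without versions or roles, and no source used here names the program that counted reads. The authors deposited 1 table with an estimated count per gene and library. Of the estimated counts above 0, 83.6% to 84.9% per library were whole numbers (tolerance 1e-06). The test had been planned for raw counts, so the estimated counts were rounded to whole numbers first. A further 9 columns of normalized values were not used here, since their names cannot be tied to 1 sample each. Columns were assigned to groups by name, with the letters a, b and c as library names only. The columns of UXS1 siRNA spell the gene with its last letters swapped.

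Genes kept by filterByExpr were scaled by TMM, and 1 mean per group was fitted on all 9 libraries (edgeR 4.0.16 in R 4.3.3, quasi-likelihood test, two-sided). Benjamini-Hochberg adjustment ran over all 12657 tested genes, with a threshold of 0.05. CPM values use TMM-adjusted library totals, and relative log2 CPM a prior count of 2. Transcript and coding lengths are medians over a gene's principal transcripts in GENCODE 29 (12573 and 12551 of the genes tested). Length corrections used offsets per library by lowess (span 0.3), with coding length chosen after the data were seen. Other alternatives were DESeq2 1.42.0, limma-voom (limma 3.58.1), DESeq2 size factors, no filter on low counts, only the 6 libraries compared and each library left out. The gene test was tested on simulated data.

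The members and all lists were chosen with earlier results of these data known. Values per library are given for all members of complex II, for the 3 members with the smallest unadjusted p in either comparison with control and the highest and lowest log2 fold change in each complex, for isoform sets and for ATP5IF1, and the other members by counts and range. From the lists, the 2 genes with the smallest p are named. A list of 3 nuclear-retained RNAs had 0 genes in the table. No molecular identifiers are mentioned, so PCR copies cannot be told from separate molecules, and the SEs of log2 fold changes come from the spread between libraries in the fit.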

Additional observations from a re-analysis of the deposited data

How the results depend on the processing

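The median of the members was above 0 with both targeting siRNAs under every alternative run. Leaving out 1 library gave 0.34 to 0.47 in UXS1 siRNA and 0.33 to 0.61 in MRPL42 siRNA, against 0.42 and 0.46 with all, and leaving out both libraries named below gave 0.36 and 0.58. The 3 length corrections moved it by more than the SD between libraries: it was 0.0868 in UXS1 siRNA and 0.10 in MRPL42 siRNA with annotated transcript lengths, 0.14 and 0.22 with coding lengths, and 0.15 and 0.23 with coding lengths and without control library c; the last 2 corrections and the joint removal of 2 libraries were chosen after seeing the data. In UXS1 siRNA against control siRNA, 0 members and 2 genes passed with all libraries, 18 members and 460 genes with DESeq2, 13 and 253 with the 6 libraries compared, 27 and 1206 without MRPL42 siRNA library b and control library c, 1 and 262 with coding lengths and without control library c, 0 and 8 with transcript lengths, and 0 and 6 with coding lengths. Leaving out 1 library gave 0 to 20 members and 0 to 355 genes, with the highest counts without MRPL42 siRNA library b and 201 genes without control library c. In MRPL42 siRNA, 0 members and 0 genes passed with all libraries, 25 and 677 with DESeq2, 33 and 1856 without both libraries, 2 and 249 with coding lengths and without control library c, and 0 and 2 with transcript lengths, and no member passed with the 6 libraries compared. Leaving out 1 library gave 0 to 30 members and 0 to 810 genes, again with the highest counts without MRPL42 siRNA library b and 169 genes without control library c. Between the targeting siRNAs 1 gene passed without both libraries, and no member did under any alternative. The cause of these differences was not tested. With the transcript length correction, in UXS1 siRNA SDHB stood at -0.10, UQCRH at -0.12, COX4I1 at -0.0905, COX5A at -0.20, COX6C at -0.0531, COX7B2 at -0.0777, COX8A at -0.0957, ATP5F1B at -0.0405, ATP5F1D at -0.0288, ATP5IF1 at -0.50, ATP5MC3 at -0.0202, ATP5PD at -0.14, ATP5PF at -0.0756 and ATP5PO at -0.11. In MRPL42 siRNA SDHB stood at -0.0577, SDHD at -0.11, UQCRC2 at -0.0007, UQCRH at -0.11, COX4I1 at -0.0348, COX5A at -0.16, COX6C at -0.0221, COX7B2 at -0.12, COX8A at -0.0205, ATP5F1B at -0.0168, ATP5F1C at -0.0033, ATP5IF1 at -0.45, ATP5PD at -0.13, ATP5PF at -0.15 and ATP5PO at -0.0493. With the coding length correction, in UXS1 siRNA SDHC stood at -0.11, UQCRB at -0.0267, COX5A at -0.0654, COX7A2L at -0.0804, ATP5IF1 at -0.16, ATP5MF-PTCD1 at 0.0086 and ATP5PB at -0.0105. In MRPL42 siRNA SDHC stood at -0.12, SDHD at -0.12, COX7A2L at -0.091, ATP5IF1 at -0.0617 and ATP5PB at -0.0092. With the coding length correction and without control library c, in UXS1 siRNA SDHC stood at -0.0741, COX5A at -0.0795, COX7A2L at -0.0502, ATP5IF1 at -0.10 and ATP5MF-PTCD1 at 0.0615. In MRPL42 siRNA SDHC stood at -0.085, SDHD at -0.0779, COX5A at -0.0115, COX7A2L at -0.0622 and ATP5IF1 at -0.0003. Without MRPL42 siRNA library b and control library c, in UXS1 siRNA ATP5F1A stood at -0.0235, ATP5F1B at -0.0095 and ATP5MF-PTCD1 at 0.0113. In MRPL42 siRNA UQCRC2 stood at -0.0164 and ATP5F1A at -0.0606. With the 6 libraries compared, in UXS1 siRNA ATP5F1A stood at -0.0084. With DESeq2, in UXS1 siRNA ATP5F1A stood at -0.0058. With DESeq2 size factors, in UXS1 siRNA ATP5F1A stood at -0.0057. With limma-voom, in MRPL42 siRNA ATP5F1A stood at -0.001. Over the fits that leave out 1 library each, UQCRC2 in UXS1 siRNA lay between -0.0148 and 0.0283, ATP5F1A in UXS1 siRNA lay between -0.0236 and 0.0229, ATP5F1B in UXS1 siRNA lay between -0.0096 and 0.0612, ATP5IF1 in UXS1 siRNA lay between -0.0221 and 0.21, ATP5MF-PTCD1 in UXS1 siRNA lay between -0.0908 and 0.0112, SDHC in MRPL42 siRNA lay between -0.008 and 0.082, SDHD in MRPL42 siRNA lay between -0.0065 and 0.0964, UQCRC2 in MRPL42 siRNA lay between -0.0171 and 0.0178 and ATP5F1A in MRPL42 siRNA lay between -0.0395 and 0.041. No single member passed the threshold in the fits of all 9 libraries by edgeR or limma-voom, so these turns of sign are of values that were not called. No paired analysis was possible because the columns carry letters and no repeat numbers, so the planned replicate block was not run. With 3 libraries a group and MRPL42 siRNA library b and control library c apart, precision is limited by the spread between libraries, and for UQCRHL and COX6B2 by depth.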
